A study of Mus musculus with 6 samples.

Results

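The genes described here are 10 neuronal immediate early genes, Fos, Fosb, Junb, Egr1, Egr2, Npas4, Nr4a1, Arc, Homer1 and Bdnf, in prefrontal cortex with and without the transcription factor Nrf2. They were taken from the array by gene name or by RefSeq transcript, which gave 24 probes for the 10 genes, out of 18193 genes that had a RefSeq probe that could be tested. All 24 probes were well above background on all 6 arrays. The samples were 3 of Nrf2 knockout and 3 of wild type mice. Both genotypes were of the outbred stock ICR, male, and 3 to 4 months old, and no stimulus or treatment is named for either. The labels give neither the part of Nfe2l2, the gene for Nrf2, that was deleted nor whether each sample was a separate animal. The p-values therefore speak only to how much these samples vary, and that variation may be technical.

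Immediate early genes are switched on within minutes of strong synaptic input, without new protein synthesis. Calcium entering through NMDA receptors and L-type calcium channels reaches CREB, SRF with its partner ELK1, and MEF2, which sit ready on their promoters. The products are mostly transcription factors that start a second wave of genes, together with a few proteins that act at the synapse itself, so their mRNA levels in cortex are widely read as a trace of recent neuronal activity. Handling and the time before tissue is frozen are known to move them as well.

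Short stretches of some of their promoters are printed here to show where sites for CREB and SRF lie. Whether these sites bear on the levels measured was not tested. The sequences are from RefSeq on build GRCm38.p6, on the strand of the gene. Capitals mark the core of the cyclic AMP response element (CRE), TGACG, or CGTCA where it lies on the other strand, which CREB can bind, and in Egr2 the CArG box, which SRF binds.
Fos, chr12:85473751-85473838, plus strand: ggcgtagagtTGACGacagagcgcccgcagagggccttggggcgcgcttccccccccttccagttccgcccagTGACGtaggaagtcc
Fosb, chr7:19310091-19310115, minus strand: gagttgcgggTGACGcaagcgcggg
Junb, chr8:84978840-84978864, minus strand: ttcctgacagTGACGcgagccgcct
Egr2, chr10:67537484-67537513, plus strand: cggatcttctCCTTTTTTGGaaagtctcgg
Egr2, chr10:67537797-67537826, plus strand: CCATATATGGgcagcgaCGTCAcgggtatt
Nr4a1, chr15:101266796-101266820, plus strand: cctctccatgCGTCAcggagcgctt
Npas4, chr19:4990129-4990157, minus strand: cgttcgaCGTCAcgggaTGACGtcggaag

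Promoter sequences were at hand for 8 of the genes, in 19 entries, and the 250 bases before each start were searched on both strands. All 8 genes held TGACG in at least 1 entry (10 of the 19 entries), and 17.8% of all 32851 promoters did. The full CRE, TGACGTCA, was in none of the 19 entries and in 1.55% of all promoters. A CArG box was in 4 entries, all of Egr2, and in 1.47% of all promoters. The core of the antioxidant response element that Nrf2 binds was in 4 entries, of Egr2 and Homer1, and in 10.2% of all promoters. This core starts with TGAC and overlaps the CRE core where G follows. AP-1 sites were in none of the 19 entries, EGR sites in 2 (Fosb and Nr4a1) and a TATA box in 1 (Fos), against 4.46%, 3.06% and 12.4% of all promoters. Entries of the same gene can overlap. Overlapping entries of Egr2 counted the same CArG box, CRE core and antioxidant response element core more than once. The counts of entries are therefore not counts of separate sites, and they were not tested against the shares of all promoters. A match describes letters only.

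Levels are log2 processed signals from which the 75th percentile of the array was subtracted, so that 0 is that percentile and a difference of 1 is a doubling. They compare a probe between arrays and not one probe with another. Of the probes of a gene, the lead probe is the one with the highest mean. Adjusted p-values are from limma with Benjamini-Hochberg adjustment over all 105930 tested probes, differences are knockout minus wild type, and the threshold was an adjusted p under 0.05. Knockouts 2 and 3 were on slide 2, while knockout 1 and all wild type arrays were on slide 1. The first principal component held 52.2% of the variance and put knockouts 1, 2 and 3 at −25.8, 100.7 and 99.5, against −70.7, −54.8 and −49.0 for wild types 1, 2 and 3. For the lead probes of the 10 genes, the difference is therefore also given with slide as a block. That value compares only knockout 1 with the wild type arrays, and it equals the one within slide 1.

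Nfe2l2 followed the genotype labels. Of 3 probes for its coding transcript, 2 were not well above background on any knockout array and at least 65.6-fold and 81.5-fold lower in the knockout. The third read −3.74, −3.79 and −3.47 in the knockout, against 0.49, 0.39 and 0.36 in wild type. A probe for a non-coding transcript of the gene differed by −0.35.

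No immediate early gene passed the threshold: 0 of 24 probes did in limma, while 10 of all tested probes did (0.00944%). At an unadjusted p under 0.05 the count was 2 of 24, both of Npas4 and higher in the knockout, against 15.1% of all tested probes in either direction and 6.11% in that direction. Lead probes of 6 genes were above 0 and of 4 below. Their median log2 difference was 0.12, against −0.0053 over all 18193 genes. With slide as a block 3 were above and 7 below 0, the median was −0.18, and over all genes it was −0.058. The sign of the median thus differed between these fits. Without a slide term it was also below 0 when knockout 3 (−0.12) or wild type 2 (−0.072) was left out. Leaving out any other array kept it above 0. The fit with slide as a block compared only the knockout array that shares a slide with the wild type arrays. Slide and sample therefore cannot be told apart in that fit. In that fit 0 of 24 probes passed (0.00661% of all probes did), and 2 of 24 had an unadjusted p under 0.05 (5.69% of all).

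**Figure D1:**
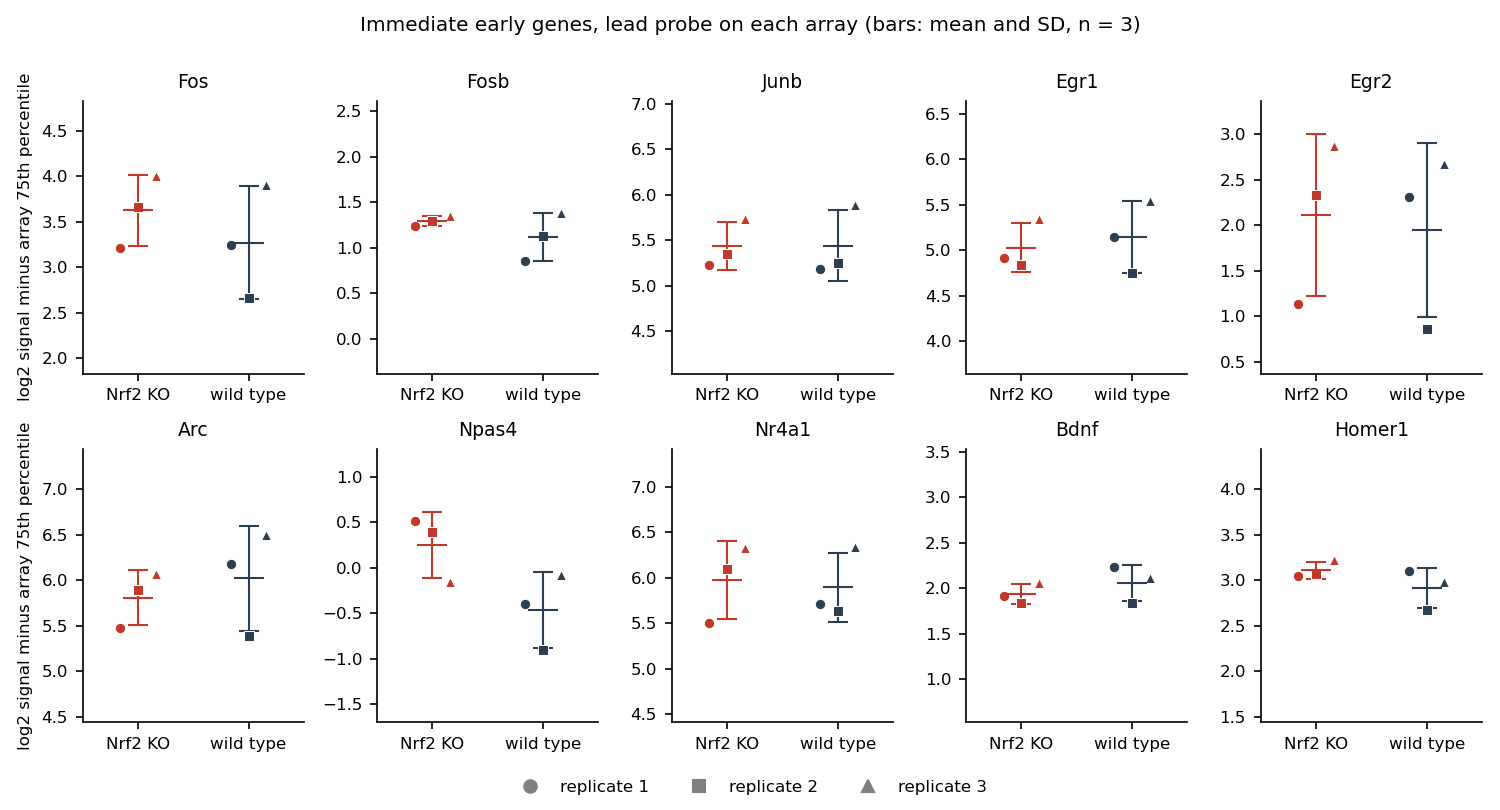
Level of each of the 10 genes at its lead probe, as log2 signal minus the array 75th percentile, in Nrf2 knockout (red, left) and wild type (dark, right). Symbols are replicates 1 to 3, bars are means with SD (n = 3 each), and every panel spans the same number of log2 units. The groups overlap in every panel, and in that of Npas4 the knockout circle and square lie above all wild type symbols.

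Npas4 had the largest difference of the 10. It encodes a transcription factor restricted to neurons, which is induced by calcium influx and drives genes of inhibitory synapses. Its lead probe (mm9 chr19:4984833-4984892) read 0.52, 0.40 and −0.16 in knockouts 1, 2 and 3, against −0.40, −0.91 and −0.08 in wild types 1, 2 and 3. Knockouts 1 and 2 lay above every wild type array, but knockout 3 lay below wild type 3, so the groups overlapped.

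The mean of that probe was 0.25 ± 0.36 in the knockout and −0.46 ± 0.42 in wild type (SD, n = 3 each). The difference was 0.71 ± 0.26 (SE), a 1.64-fold higher level with a 95% interval of 1.06 to 2.54-fold, and limma's adjusted p was 0.32. The second probe of Npas4 shares 16 bases with the first. It read −0.09, −0.22 and −0.56 in the knockout, against −0.80, −1.28 and −0.65 in wild type, and here all knockout arrays lay above all wild type arrays. Its difference was 0.62 ± 0.20 (SE), with an adjusted p of 0.31.

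Of the 24 probes, 2 had all knockout arrays above all wild type arrays, this one and a probe of Fosb, against 11.1% of all tested probes. With slide as a block the differences of Npas4 were 0.98 ± 0.36 and 0.82 ± 0.28 (SE), with adjusted p of 0.86 and 0.84. Over all alternative settings the difference at the lead probe ranged from 0.49 to 0.98 and the adjusted p from 0.23 to 0.90, so the direction held and the threshold was not reached.

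Fos, Fosb and Junb encode subunits of AP-1, the dimeric factor that binds TGAGTCA. Fos is the most used marker of active neurons. Its lead probe read 3.22, 3.66 and 4.00 in the knockout, against 3.24, 2.66 and 3.91 in wild type. Wild type 2 was the lowest array, 1.25 below wild type 3, and the other 5 interleaved. The difference was 0.36 ± 0.34 (SE; adjusted p = 0.59) and −0.05 ± 0.46 with the slide block. A second Fos probe (mm9 chr12:86817900-86817959), which shares 25 bases with the first, differed by 0.11.

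Fosb gives a full-length protein and, by splicing, the long-lived ΔFosB, which its probes were not assigned to separately. The lead probe read 1.24, 1.29 and 1.35 in the knockout, against 0.85, 1.13 and 1.38 in wild type. The knockout arrays were close together and within the wild type range. The difference was 0.17 ± 0.14 (SE; adjusted p = 0.54), and 0.12 with the slide block. At the second probe the values were −0.05, 0.10 and 0.23 in the knockout, against −0.51, −0.16 and −0.06 in wild type, without overlap by a margin smaller than the spread within either genotype. That probe differed by 0.33 ± 0.15 (SE; adjusted p = 0.34), and by 0.19 with the slide block.

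Junb restrains c-Jun in AP-1 and is induced along with Fos. It read 5.23, 5.35 and 5.74 in the knockout, against 5.18, 5.25 and 5.89 in wild type at the lead probe. Replicate 3 was the highest array in both genotypes, and the wild type range enclosed the knockout values. The difference was −0.00028 ± 0.23 (SE; adjusted p = 1.00), with a 95% interval of −0.55 to 0.55, and −0.21 with the slide block. Its other probes, which share 22 to 55 bases with each other and with the lead probe, differed by 0.08 and 0.04.

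Egr1 and Egr2 encode zinc finger factors that bind GC-rich sites, Egr1 abundant in resting cortex through ongoing activity and Egr2 more dependent on strong input. Egr1 read 4.91, 4.84 and 5.34 in the knockout, against 5.14, 4.75 and 5.54 in wild type. The groups overlapped, and the difference was −0.11 ± 0.23 (SE; adjusted p = 0.81), or −0.23 with the slide block. The second Egr1 probe differed by −0.22.

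Egr2 varied the most between arrays of one genotype. At its lead probe (mm9 chr10:67004758-67004817) it read 1.13, 2.33 and 2.87 in the knockout, against 2.31, 0.86 and 2.68 in wild type. Knockout 1 and wild type 2 lay well below the other 4 arrays, which were close to each other whatever their genotype. The lowest and highest array differed by 4.04-fold. The difference between genotypes was 0.17 ± 0.60 (SE; adjusted p = 0.90), with a 95% interval of −1.27 to 1.60. With the slide block it was −0.81 ± 0.71 (SE; adjusted p = 0.95), since that value rests on knockout 1. The second probe, which shares 23 bases, ranged from 0.68 to 2.15 in the knockout and from 0.26 to 2.10 in wild type.

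Nr4a1 encodes an orphan nuclear receptor that limits spine density in active neurons. It read 5.50, 6.09 and 6.33 in the knockout, against 5.71, 5.63 and 6.33 in wild type, and the highest arrays of the genotypes had the same level. The difference was 0.08 ± 0.27 (SE; adjusted p = 0.89) and −0.39 ± 0.30 with the slide block. The second probe, with 44 bases in common, differed by −0.0029.

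Arc, Homer1 and Bdnf act at the synapse. Arc mRNA travels to dendrites, and its protein removes AMPA receptors from synapses. Its lead probe read 5.47, 5.89 and 6.06 in the knockout, against 6.17, 5.39 and 6.50 in wild type. The wild type values enclosed those of the knockout. The difference was −0.21 ± 0.30 (SE; adjusted p = 0.73), and −0.55 ± 0.42 with the slide block. A second probe of Arc (mm9 chr15:74499597-74499656) differed by −0.09.

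Homer1 makes long scaffold proteins that tie metabotropic glutamate receptors to the postsynaptic density, and a short form, Homer1a, which activity induces and which loosens that tie. No probe of the array read Homer1a alone. Of its 4 probes, 2 carry the name of the short variant S, yet they lie at the 5′ end, which the long forms share. One of these, probe C, spans an exon junction and includes the start codon, in capitals in its last 30 bases, which show why it reads both forms.
Homer1 probe C, mm9 chr13:94075212-94111724 (both exons with the intron between): cattgggcaaaATGggggagcaacctatct

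The 2 probes of the 5′ end differed by 0.15 ± 0.15 and −0.04 ± 0.13 (SE), with adjusted p of 0.62 and 0.87. At the 3′ end of the long forms, the lead probe (mm9 chr13:94173265-94173324) read 3.04, 3.07 and 3.22 in the knockout, against 3.10, 2.67 and 2.97 in wild type. Wild type 2 was the lowest array and the other 5 lay close together. The difference there was 0.19 ± 0.13 (SE; adjusted p = 0.47), and 0.13 with the slide block. The remaining probe differed by −0.05. No probe of Homer1 had a 95% interval that reached a doubling or a halving.

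Bdnf encodes brain-derived neurotrophic factor, which acts through TrkB to strengthen synapses, and it has several promoters of which some respond to activity. Its lead probe lies in the coding exon that all its transcripts share, so the array gave the sum over promoters. The probe is shown because its letters code for part of the mature factor.
Bdnf probe A, mm9 chr2:109564203-109564262: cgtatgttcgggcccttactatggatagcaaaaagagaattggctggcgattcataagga

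This probe read 1.91, 1.84 and 2.05 in the knockout, against 2.23, 1.84 and 2.11 in wild type, and the groups overlapped. The difference was −0.12 ± 0.13 (SE; adjusted p = 0.63), with a 95% interval of −0.44 to 0.19, and with the slide block it was −0.145. Another probe (mm9 chr2:109566470-109566529) lies farther downstream, in the part of the 3′ untranslated region that only the longer Bdnf mRNAs have. It differed by −0.14 ± 0.10 (SE; adjusted p = 0.51). The remaining probe differed by 0.03.

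**Figure D2:**
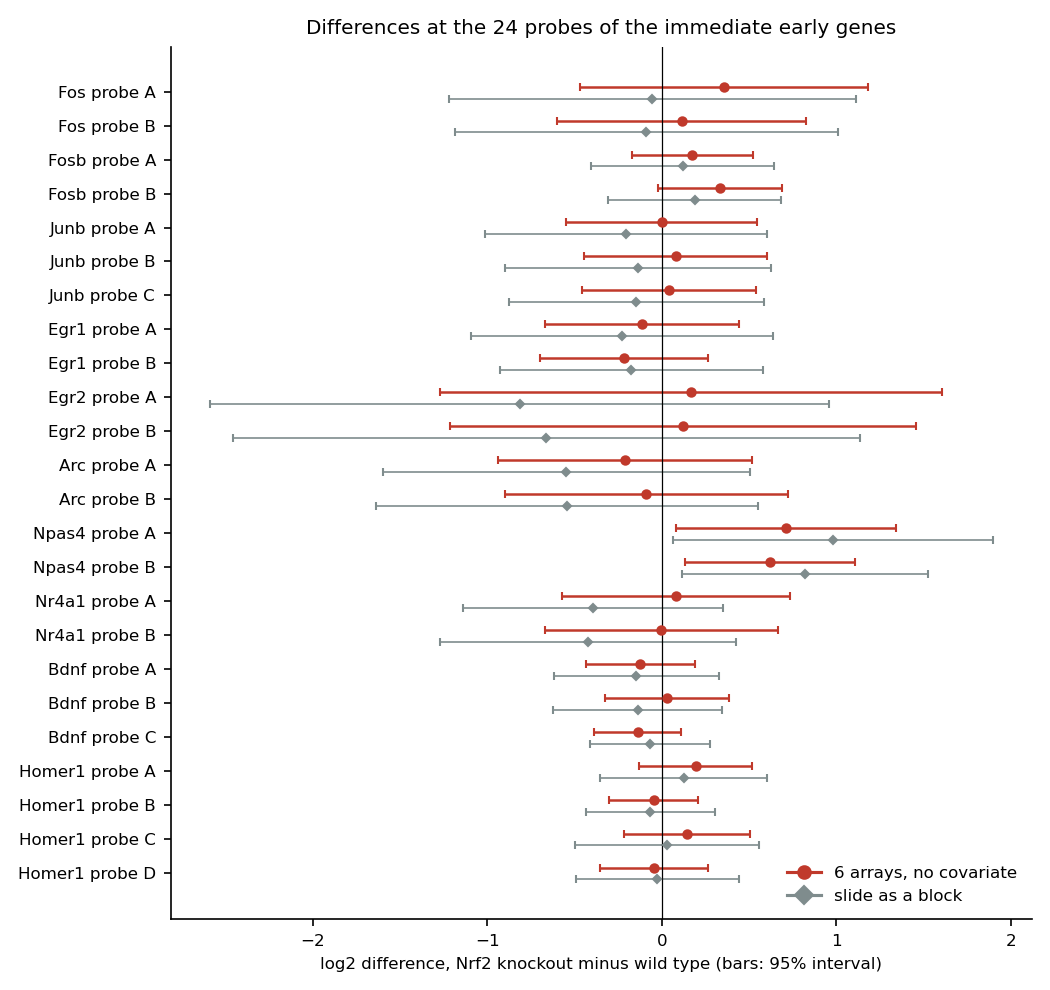
Log2 difference, Nrf2 knockout minus wild type, at each of the 24 probes with its 95% interval, from the 6 arrays without a covariate (red circles) and with slide as a block (grey diamonds). The intervals of the 2 Npas4 probes lie above 0 in both fits before any adjustment over probes, and those of the other 22 include 0.

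The values moved together from array to array inside each genotype. Among the knockout arrays, knockout 3 was the highest for 9 of the 10 genes (32.4% of all genes). Knockout 1 was the lowest for 7, which is near the share over all genes (54.6%). It was the only knockout array on slide 1, so its rank cannot be told apart from slide. Among the wild type arrays, wild type 2 was the lowest for 8 (46.1% of all genes) and wild type 3 the highest for 8 (40.3% of all genes). Fos, Egr2, Arc and Nr4a1, 4 of the 10, had this order at all 4 places, as did 6.0% of all genes. Npas4 went the other way in the knockout, with knockout 3 the lowest and knockout 1 the highest. The mean over the 10 lead probes was 3.22, 3.47 and 3.68 in knockouts 1, 2 and 3, against 3.35, 2.93 and 3.72 in wild types 1, 2 and 3. The wild type arrays spanned the wider range, and it enclosed that of the knockout arrays.

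**Figure D3:**
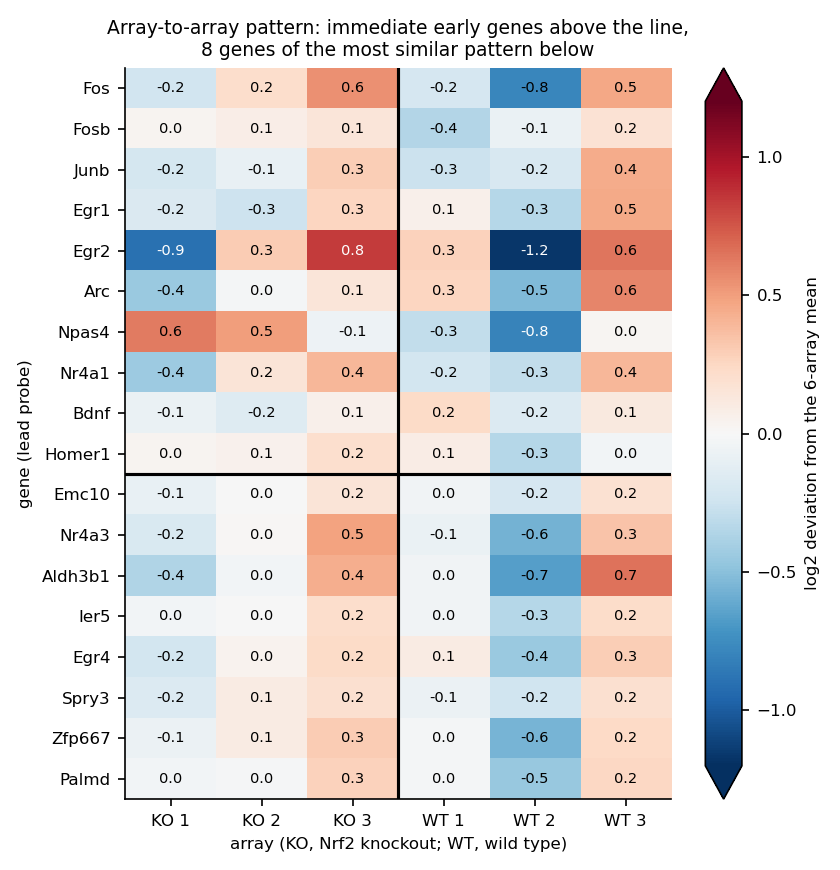
Deviation of each array from the 6-array mean, in log2 units, for the 10 immediate early genes (above the line) and the 8 other genes with the most similar mean pattern (below), with knockout arrays left of wild type arrays. Knockout 1 and wild type 2 are mostly blue (low), knockout 3 and wild type 3 mostly red (high), and Npas4 stands out in the knockout columns.

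The spread between arrays of the same genotype was large for these genes. In the knockout it includes any difference between slides, while the wild type arrays were all on slide 1. The pooled within-genotype SD was above that of the median gene (0.14) for all 10, with a median of 0.37, and its median rank was at the 90.6th percentile of all genes. Egr2 was highest, with an SD of 0.93 at the 99.2nd percentile, followed by Fos with 0.52 and Arc with 0.46. Bdnf, Homer1 and Fosb had the smallest spread, with SDs of 0.16, 0.17 and 0.19. Between the lowest and the highest wild type array, Egr2 differed by 3.52-fold, Fos by 2.37-fold and Arc by 2.17-fold, more than any of the 10 differed between genotypes. The 95% intervals reached from 0.31 on either side of the difference for Bdnf to 1.44 for Egr2, so that for Egr2, Fos and Npas4 a doubling lay inside the interval of the difference.

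**Figure D4:**
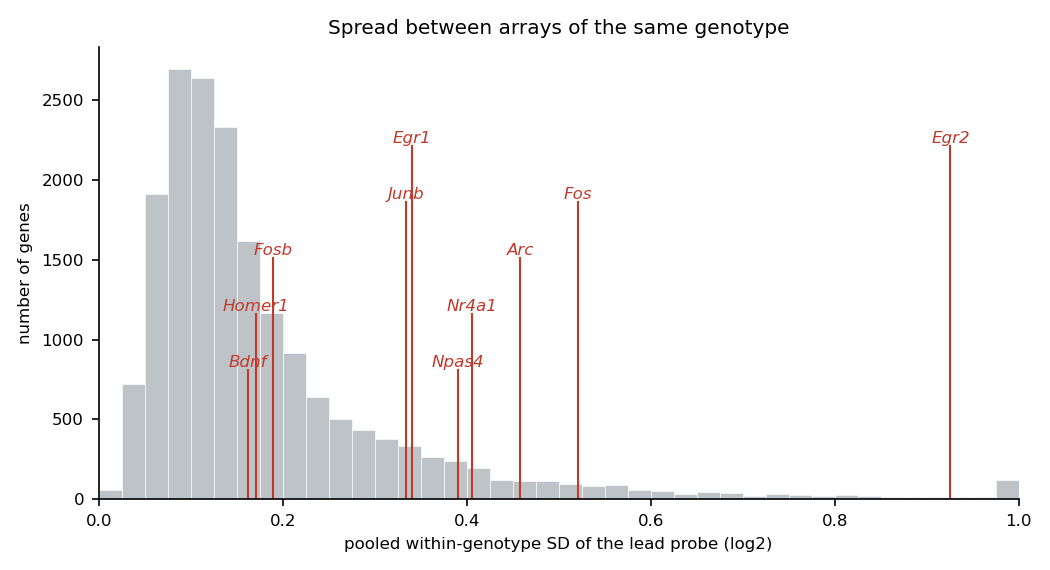
Pooled within-genotype SD of log2 signal for the lead probes of 18193 genes (grey bars, number of genes) and for the 10 immediate early genes (red lines; heights serve only to separate the names). The last bar includes the 108 genes above 1. All 10 lines lie to the right of the median gene at 0.14, Egr2 the farthest at 0.93.

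The 8 genes outside the 10 whose lead probes followed their mean pattern best over the 6 arrays were Emc10, Nr4a3, Aldh3b1, Ier5, Egr4, Spry3, Zfp667 and Palmd, chosen among 9069 genes that varied at least as much as the median gene. Their Pearson r ranged from 0.96 to 0.98, as a description over 6 arrays that share labelling and slides. Of these, 3 were on a list of 30 other rapid activity-regulated genes: Nr4a3, a nuclear receptor close to Nr4a1, Egr4, of the EGR family, and Ier5. Egr4 read 4.06, 4.32 and 4.50 in the knockout, against 4.37, 3.83 and 4.57 in wild type.

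On that list of 30, 0 genes passed the threshold, 1 higher and 3 lower genes had an unadjusted p under 0.05 (12.6% of all lead probes did), and the median difference was −0.0056, or −0.18 with the slide block. Knockout 1 was the lowest knockout array for 22 of the 30 (54.6% of all genes). Wild type 2 was the lowest wild type array for 23 (46.1% of all genes). The list's median rank of within-genotype SD was at the 82.9th percentile. The 4 largest differences were of Maff (−0.66 ± 0.19), Csrnp1 (−0.42 ± 0.24), Ccn1 (0.40 ± 0.26) and Zfp36 (−0.35 ± 0.20; SE), with adjusted p of 0.31 to 0.44. With the slide block Maff was at −0.81, Csrnp1 at 0.12, Ccn1 at 0.17 and Zfp36 at −0.08. Other probes of Csrnp1 differed by 0.018, −0.13 and 0.042, and those of Zfp36 by −0.035 and −1.69. The last of these Zfp36 probes was dim, at −5.60 and −6.66 in knockouts 2 and 3. The lowest levels well above background on those arrays were −5.07 and −5.05. With the slide block that probe differed by −0.63. Maff, a small MAF protein that partners Nrf2 on DNA and is itself quickly induced, read −2.75, −2.61 and −2.44 in the knockout, against −2.31, −1.84 and −1.66 in wild type. The groups did not overlap there (12.9% of all lead probes had every knockout array below every wild type array). The second Maff probe differed by −0.75, and by −0.69 with the slide block. Its groups overlapped, since knockout 3 at −2.60 lay just above wild type 1 at −2.63.

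Late-response genes, which the early factors help to induce, had 0 of 21 past the threshold, with a median difference of 0.05. At their lead probes 0 had an unadjusted p under 0.05, against 12.6% of all lead probes. The largest were of Ptgs2, the inducible cyclooxygenase (−0.25), of the peptide precursor Cartpt (0.23), of Fbxo33 (−0.17) and of Penk, the enkephalin precursor (−0.16). With the slide block these were −0.44, −0.069, −0.27 and −0.45. The other probes of Ptgs2 differed by −0.37, with an unadjusted p under 0.05, and by −0.26. Those of Cartpt differed by 0.26 and −0.12, those of Fbxo33 by −0.25, 0.020 and 0.0085, and those of Penk by −0.13 and 0.16. Upstream of the immediate early genes, 0 of 22 channels, kinases and factors passed, and the median was −0.02. At their lead probes 3 had an unadjusted p under 0.05 (12.6% of all lead probes did). There the largest differences were of the kinase genes Mapk3 (−0.49) and Camk4 (0.47), of Mef2d (0.42) and of the CREB coactivator Crtc1 (−0.27). Those of Mapk3 and Camk4 came from 1 probe each, and their other probes differed by 0.13 and 0.16 and by 0.0024 and −0.16. With the slide block Mapk3 was at −0.039, Camk4 at 0.41, Mef2d at 0.11 and Crtc1 at −0.078.

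Of 16 partners and receptors of the products, 0 passed, with a median of −0.03. At their lead probes 0 had an unadjusted p under 0.05, against 12.6% of all lead probes. Other probes of Ngfr, Homer3 (−0.47) and Ntrk2 (0.29, against 0.029 at its lead probe) did have an unadjusted p under 0.05. The largest differences at lead probes were of the neurotrophin receptor Ngfr (−0.37) and the retinoid receptor Rxra, a partner of nuclear receptors (−0.33). Homer3 (−0.26) and the scaffold Shank1 (0.18) followed. The other probes of Ngfr differed by −0.58 and 0.46. With the slide block Ngfr was at −0.35, Rxra at −0.20, Homer3 at −0.090 and Shank1 at 0.12. The other probes of Rxra differed by −0.20 and 0.23 without the block.

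The tissue label was checked on cell type markers. All 6 pan-neuronal and all 7 cortical excitatory neuron markers were well above background on all arrays, with median differences of 0.04 and 0.05. Mean levels of the pan-neuronal markers were 6.40 to 6.43 in the knockout and 6.28 to 6.41 in wild type, lowest in wild type 2, the array with the lowest immediate early gene levels. Meningeal fibroblast markers were below 0 in difference for 6 of 6 (median −0.40, mean level 1.40 to 1.76 in the knockout and 1.71 to 2.38 in wild type). Red blood cell markers were above 0 for 4 of 4 (median 0.50, mean level 6.13 to 6.31 in the knockout and 5.55 to 6.08 in wild type). Of 8 striatal neuron markers, Adora2a, Drd2 and Rgs9 were at −0.53, −0.43 and −0.37 with unadjusted p under 0.05, while the other 5 were above 0. With the slide block Adora2a, Drd2 and Rgs9 were at −0.25, −0.18 and −0.23. Other probes of Adora2a differed by 0.45 and −0.086, and another of Rgs9 by 0.092, so their probes did not share a direction. The striatal list had a median of 0.03, or −0.12 with the slide block. Its mean level was 1.09 to 1.16 in the knockout, against up to 1.25 in wild type, where each array lay above all knockout arrays. Of 5 tested choroid plexus markers, Kl and Kcnj13 were at −0.66 and −0.55 with unadjusted p under 0.05. Clic6 was at −0.095, while Ttr and Folr1 went the other way, at 0.22 and 0.18. With the block Kl, Kcnj13, Clic6, Ttr and Folr1 were at −0.68, −0.54, −0.61, −0.071 and −0.11. The choroid plexus list had a median of −0.095, or −0.54 with the block. Its mean level was −2.30 to −1.89 in the knockout and −1.98 to −1.78 in wild type, and Otx2 could not be tested. Microglia markers were below 0 for 6 of 6 (median −0.065, mean level 4.00 to 4.15 in the knockout and 4.11 to 4.25 in wild type). Astrocyte markers had a median of −0.046, with Gfap at −0.49, and a mean level of 4.45 to 4.73 in the knockout and 4.62 to 4.86 in wild type. Inhibitory neuron, oligodendrocyte and endothelial markers had medians of −0.13, 0.022 and −0.0069. None of the markers on these lists passed the threshold, and their part in the immediate early gene levels was not tested. In bulk tissue, fewer cells of a type and less RNA per cell cannot be told apart.

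The array also held circular RNA (circRNA) probes inside these genes. CircRNAs are closed loops made when a splice donor joins an upstream acceptor. Their names give spans without a build. GRCm38 was assumed, since 97.3% of the 37852 spans fell within coding genes of that assembly and 35.9% did once moved by 1 Mb. There were 16 inside 5 of the genes, 9 of them in Homer1 and the others in Fos, Egr1, Egr2 and Arc, and 15 could be tested. None passed the threshold, and 1 of all tested circRNA probes did. Strand was not used to place the spans. In Egr1, chr18:34863528-34863629 is named on the minus strand and chr18:34861358-34862552 on the plus strand. The labels name no step that enriches circular RNA, so signal from linear transcripts cannot be told apart. Within each genotype, the 2 probes in Arc put the arrays in the same order as its mRNA probes. That of chr15:74669449-74670688 read 2.72, 3.06 and 3.44 in the knockout, against 3.18, 2.48 and 3.54 in wild type.

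Homer1 gave 4 circRNA probes at which all knockout arrays lay below all wild type arrays, and Fos 1, together 5 of 15, against 6.82% of all tested circRNA probes. The same 5 had an unadjusted p under 0.05, against 6.15% of tested circRNA probes in that direction. The 4 in Homer1 share 1 back-splice end within 2 bases, at chr13:93341754 or 93341756, and reach to 93349297, 93356079, 93356080 and 93357647, so they are not independent. The probe of chr13:93341756-93356079 read 3.61, 2.97 and 3.05 in the knockout, against 3.91, 3.76 and 3.86 in wild type. Knockouts 2 and 3, on slide 2, were far below, and knockout 1, on slide 1, lay just under the wild type arrays.

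The difference of that probe was −0.63 ± 0.18 (SE; adjusted p = 0.31), and −0.24 with slide as a block (adjusted p = 0.90). At the other 3, ending at 93349297, 93356080 and 93357647, the differences were −0.70, −0.51 and −0.69, and −0.27, −0.20 and −0.18 with the block. Without knockout 1, which leaves slide and genotype impossible to tell apart, these 4 passed the threshold with adjusted p of 0.0040 to 0.014, as did 14.5% of tested circRNA probes and 12.8% of all tested probes, but 0 of the 24 mRNA probes. The circRNA with the same start that reaches to 93356185 read 2.09, 2.27 and 2.29 in the knockout, against 2.40, 2.08 and 2.36 in wild type. It differed by −0.06 ± 0.12 (SE), and that to 93393108 by 0.19 ± 0.11. The mRNA probes of Homer1 differed by −0.05 to 0.19, and the contrast between circular and linear probes was not tested.

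In Fos, the circRNA probe of chr12:85476327-85476577 read 0.50, 0.42 and 0.58 in the knockout, against 1.00, 1.02 and 1.39 in wild type. The knockout arrays, on both slides, were alike and below every wild type array, but all wild type arrays were on slide 1. The difference was −0.64 ± 0.13 (SE; adjusted p = 0.31), and −0.63 with slide as a block (adjusted p = 0.80). The other circRNA probe in Fos, chr12:85475943-85476443, differed by −0.13, while the mRNA probes of Fos differed by 0.36 and 0.11.

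**Figure D5:**
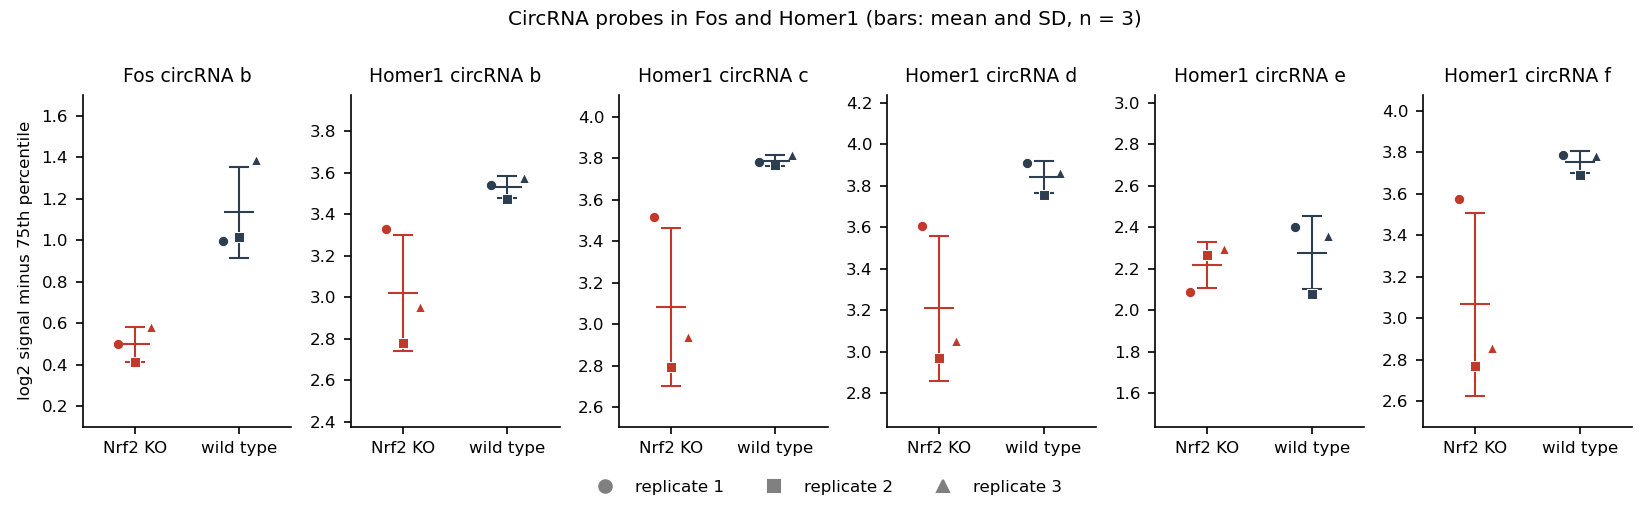
Level of 6 circRNA probes, as log2 signal minus the array 75th percentile, in Nrf2 knockout (red, left) and wild type (dark, right), with symbols for replicates 1 to 3 and bars for mean and SD (n = 3 each). Fos b spans chr12:85476327-85476577; Homer1 b to f start at chr13:93341754 (b) or 93341756 and end at 93356080, 93349297, 93356079, 93356185 and 93357647. In Homer1 b, c, d and f the circle (knockout 1, on slide 1) sits near the wild type arrays and the other knockout symbols lie far below, while in Fos b all 3 knockout symbols lie together.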

How the data were processed

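Each sample was labelled with Cy3 and hybridised to 1 Agilent array. The deposited scanner files hold intensity on a linear scale, already background-subtracted and detrended, from Feature Extraction 12.0.3.1 with grid build mm9 per the file headers; version 10.7 and limma are named in the submitters' processing notes. The authors' deposited value table is on a log2 scale, made by steps that the sources used here do not name. Its values differed from log2 processed signals after quantile normalization by a median of 0.0035 to 0.0043 per array. It served as an alternative, close to the alternative with quantile normalization. From the scanner files, log2 of the processed signal minus the array 75th percentile was taken, without control spots and with outlier spots missing. Probes well above background on all 3 arrays of at least 1 group were tested with limma 3.58.1 in R 4.3.3 (two-sided, threshold 0.05), a step tested on simulated data. The 3 arrays per group limit the precision.

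The genes and lists were chosen with earlier results of these data known. By rule, all probes of the 10 genes are given, and from each list the genes past the threshold or else the 4 largest differences at the lead probe. The 8 genes of similar pattern and Nfe2l2 followed rules too. Replicate numbers do not pair the samples: deviations of same-numbered arrays correlated at −0.013, −0.050 and 0.038. Alternatives changed the scaling, background, probe filter, value table, slide, pairing and replicates.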

Additional observations from a re-analysis of the deposited data

How the results depend on the processing

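The count of immediate early gene probes past the threshold was 0 in every setting that tests single probes, and no gene passed in any of 180 refits of the 10 lead differences under 18 settings (lowest adjusted p = 0.23, limma). Direction kept in 161 of these and turned in 19, in Fos, Junb, Egr1, Egr2, Nr4a1 or Arc, and in none for the other 4 genes. With slide as a block, and on slide 1 alone, Egr2 was at −0.81, Fos at −0.054 and Nr4a1 at −0.39. Junb turned to 0.0089 with normexp background correction, 0.051 with array median scaling and 0.041 with all its probes averaged. Leaving out 1 array in turn gave ranges of −0.53 to 0.030 for Arc, −0.31 to 0.085 for Egr1, −0.38 to 0.66 for Egr2, −0.15 to 0.22 for Junb, −0.10 to 0.32 for Nr4a1 and 0.49 to 0.92 for Npas4. For Fos it gave 0.051 (without wild type 2) to 0.67 (without wild type 3), for Fosb 0.042 (without wild type 1) to 0.30 (without wild type 3), for Homer1 0.070 (without wild type 2) to 0.29 (without wild type 1), and for Bdnf −0.24 (without wild type 2) to −0.038 (without wild type 1). The median over the 10 genes ranged from −0.12 to 0.26 in this way, and without wild type 2 it was −0.07. The count over all tested probes, 10, was 17 with normexp, 4 with probes well above background on all 6 arrays and 4 on slide 1 alone. Leaving out 1 array gave 5 to 13562, the highest without knockout 1, which leaves genotype and slide impossible to tell apart, and 50 without wild type 1. The replicate number as a block, which does not pair these samples, left 2 probes. The cause of these changes was not tested. Signal over background did not limit the mRNA probes of the 10 genes, since all of these were well above it.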
